A study of Homo sapiens with 28 samples.

Results

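The genes described here encode core proteins of the small nuclear ribonucleoproteins (snRNPs) and of the spliceosome. They are the 48 genes whose symbol starts with SNRP, SF3A, SF3B, U2AF, LSM followed by a digit, or PRPF, with pseudogenes, antisense names and the kinase gene PRPF4B left out. All 48 were in both tables of the series, of 16482 genes in the table of all reads and 13029 in the table of T>C reads. By role they are 8 Sm ring proteins, 2 U1 snRNP proteins, 10 U2 snRNP proteins, 3 U2AF proteins of the 3′ splice site, 13 Lsm proteins and 12 PRPF proteins. The cells were MDA-MB-453, a human breast cancer line with amplified HER2. Cells received DMSO, JQ1, IBET151, JQ1-VHL or IBET151-VHL for 3 h, and every group also received 0.1 mM 4-thiouridine (4sU) for the last 60 min. JQ1 and IBET151 are inhibitors that occupy the bromodomains of BET proteins, the readers of acetylated histones that help RNA polymerase II to start and elongate. The names of the other compounds carry VHL, a ubiquitin ligase subunit that BET degraders are built to recruit, and the labels give neither doses nor structures. Digitonin parted each sample into a cytoplasmic supernatant (Cyto) and a nuclear pellet (Nuc), which gave 28 libraries in 10 groups of 3, except 2 for IBET151 in each fraction. The labels do not say that replicates were separate cultures, so every p-value below measures the spread between these libraries. 4sU taken up into new RNA is read as C in place of T after alkylation, so T>C reads come mainly from RNA made in the labelled hour.

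Splicing is carried out by snRNPs, particles of a small nuclear RNA and its proteins. Sm proteins form a ring around the U1, U2, U4 and U5 RNAs, Lsm proteins form a related ring on U6 RNA, and a cytoplasmic Lsm ring that holds LSM1 promotes decapping of mRNA. U1 binds the 5′ splice site, the U2AF dimer binds the 3′ splice site, U2 with the SF3A and SF3B complexes binds the branch point, and PRPF8 lies at the catalytic core within the U5 particle. LSM10 and LSM11 replace a pair of Sm proteins in the U7 particle, which cuts the 3′ ends of histone mRNA. In most cells these proteins are long-lived and their mRNAs are abundant, and snRNP proteins and splicing factors are stored in nuclear speckles.

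Promoter windows of 3 members are shown because LSM11 and PRPF38B were the members that passed with IBET151-VHL in cytoplasmic all reads, and SNRPB stands for the Sm ring. The windows run from 250 bases before to 50 after the annotated start and come from RefSeq on GRCh38.p14. They are LSM11 at chr5:157743462-157743761 on the plus strand, PRPF38B at chr1:108692060-108692359 on the plus strand and SNRPB at chr20:2470740-2471039 on the minus strand. Capitals mark the motifs found among the 5 searched on both strands, which were the E-box CACGTG, the CCAAT box CCAAT, the GC box GGGCGG, the TATA box TATAAA and the ETS core CCGGAA.
LSM11: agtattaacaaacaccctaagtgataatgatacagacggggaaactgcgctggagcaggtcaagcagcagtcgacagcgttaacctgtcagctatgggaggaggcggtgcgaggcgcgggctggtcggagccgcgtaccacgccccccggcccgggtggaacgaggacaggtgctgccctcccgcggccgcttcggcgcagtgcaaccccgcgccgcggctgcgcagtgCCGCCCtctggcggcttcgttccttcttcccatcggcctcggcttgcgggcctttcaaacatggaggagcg
PRPF38B: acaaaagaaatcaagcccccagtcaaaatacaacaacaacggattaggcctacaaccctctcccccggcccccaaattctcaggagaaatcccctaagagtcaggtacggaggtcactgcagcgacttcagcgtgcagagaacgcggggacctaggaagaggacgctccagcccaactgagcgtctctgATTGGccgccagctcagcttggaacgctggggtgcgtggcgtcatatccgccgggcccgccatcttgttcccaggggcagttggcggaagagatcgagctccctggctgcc
SNRPB: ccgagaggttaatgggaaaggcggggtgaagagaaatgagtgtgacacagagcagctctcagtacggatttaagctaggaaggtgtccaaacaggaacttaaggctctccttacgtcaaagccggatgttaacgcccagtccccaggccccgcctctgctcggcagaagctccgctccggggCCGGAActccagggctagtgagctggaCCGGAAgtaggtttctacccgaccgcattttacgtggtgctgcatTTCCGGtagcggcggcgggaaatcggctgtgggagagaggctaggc
The LSM11 window held 1 GC box, 21 bases before the start, and the PRPF38B window held 1 CCAAT box, 61 bases before the start. The SNRPB window held 3 ETS cores, 68 and 41 bases before and 5 bases after the start. Windows matched 40 of the 48 members, and 21 of these (52.5%) held an ETS core, against 17.6% of all 27305 windows and 29.6% of the 9893 windows of other genes tested. GC boxes were in 60% of the members' windows, against 44.6% of all windows and 69.8% of those of other genes tested. CCAAT boxes were in 40%, 35.7% and 37.2%, E-boxes in 2.5%, 7.43% and 10%, and TATA boxes in 2.5%, 12% and 5.54% of the same sets. These are matches of letters and do not show that a factor binds.

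Cytoplasmic libraries held 30647584 to 68475299 reads, of which 82264 to 379401 were T>C reads. Nuclear libraries held 17851589 to 38658448 reads, of which 214725 to 1928012 were T>C reads. The members took 0.89% to 1.0% of all cytoplasmic and 0.568% to 0.717% of all nuclear reads. Their T>C reads were few, 101 to 2391 in a cytoplasmic and 698 to 11506 in a nuclear library. The values below are the authors' signal, scaled to ERCC RNA that was added per mass of extracted RNA, so a difference is per RNA mass, and fewer cells and less RNA per cell cannot be told apart. Defining markers of the line were present (ERBB2, GATA3 and FOXA1 averaged 4410.3, 45838.2 and 7457.6 in the cytoplasm of DMSO cells), and KRT5, KRT14, VIM and PTPRC were at most 5.2, 2.97, 2.23 and 5.07. COL1A1, a fibroblast gene, averaged 1619.9, while the fibroblast genes COL3A1 and ACTA2 were at most 0.844 and 7.76. For 13 members GENCODE, a public gene annotation, also names pseudogenes, 67 in all, most of them of SNRPG (20) and SNRPC (18). Reads of these members may therefore be shared with copies.

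Nuclear values differed between stretches of the library numbers in the sample titles, of which there were 4, here called runs A to D. The numbers have gaps within these stretches as well as between them. The runs are thus a grouping made here, and the labels do not name them. Run A holds replicate 1 of DMSO, JQ1, JQ1-VHL and IBET151-VHL, run B their replicate 2 and IBET151 replicate 1, run C the replicate 3 of both VHL compounds and IBET151 replicate 2, and run D the replicate 3 of DMSO and JQ1. SNRPD1, a core Sm protein, read 1345.3 to 2167.5 in run A, 5605.1 to 8131.7 in run B, 7337.4 to 10815.8 in run C and 14508.4 to 15301.3 in run D. No library of run A overlapped any other run for this gene, whatever the treatment, while runs B and C overlapped each other. The cytoplasmic mRNA RPLP0 showed the same order, with 18441.7 to 20726.9 in run A and 76545.3 to 79817.5 in run D. The nuclear RNA MALAT1 did not, at 15747.5 to 45464.9 in run A and 18516.7 to 24148.6 in run D. Between DMSO Nuc replicates 3 and 1 the members differed by a median of 4.15 times, with 5.38 for the Sm ring and 2.13 for the PRPF genes, against 2.54 for all genes. In the cytoplasm the same ratio was 0.969. What the numbers stand for is not in the labels, and their part in the nuclear results was not tested beyond the fits given beside them.

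In untreated cells the members lay further toward the cytoplasm than genes in general, with a division by role. At equal RNA mass the median member was 0.29 higher in the nucleus than in the cytoplasm on the log2 scale, against 1.26 for all genes tested. The 8 Sm ring genes had a median of -1.04 and the 13 Lsm genes of -0.73, that is, towards the cytoplasm. The 2 U1 genes had a median of -0.19, the U2AF genes of 0.37, the U2 genes of 0.46 and the 12 PRPF genes of 1.13. In limma's test 7 of the 48 passed as higher in the nucleus, where 47.9% of all genes did, and 0 passed as lower. These 7 were PRPF40B (log2 3.34), PRPF39 (2.52), SNRPN (1.99), PRPF3 (1.69), PRPF8 (1.64), SF3B1 (1.5) and PRPF38B (1.46).

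PRPF40B, a homologue of the yeast U1 factor Prp40, read 41.1, 76.8 and 34.7 in the cytoplasm and 606, 515 and 383 in the nucleus of DMSO cells. The fractions did not overlap, and the difference had an SE of 0.54 and an adjusted p of 2.80e-06 in limma. PRPF3, a protein of the U4/U6 particle, read 2023.8, 1983.2 and 1126.9 in the cytoplasm and 3951.9, 7438.3 and 5193.6 in the nucleus, again without overlap. LSM3, part of both Lsm rings, lay furthest the other way, at 4497.6, 9221.8 and 6994.7 in the cytoplasm and 988, 3560.8 and 5379.4 in the nucleus. Nuclear replicate 3 overlapped the cytoplasmic values, and the difference of -1.31 did not pass (95% interval -2.56 to -0.06, adjusted p 0.0758 in limma). SNRPD1 gave 15476.5, 17181.5 and 14473.6 in the cytoplasm and 2167.5, 8131.7 and 15301.3 in the nucleus, so that its difference of -1.28 rested on nuclear libraries that lay 7.06-fold apart between replicates 1 and 3.

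The counts depended on the libraries and the scaling. With the replicate number as a block, 10 members were higher (55.3% of all genes) and 8 lower in the nucleus (1.74% of all genes). The labels do not say what this number stands for. Same-numbered correlations between the fractions reached as low as just above the limit chosen for pairing. After median-ratio scaling over human genes, which sets the typical gene equal in both fractions, 5 were higher (28.7% of all genes) and 33 lower (26.1% of all genes). The number that passed was 4 without DMSO Nuc replicate 2, 2 without DMSO Cyto replicate 3, and 12 without DMSO Nuc replicate 3, of which 5 were higher and 7 lower. Shares of all genes are not given for these fits that left out a library. The nuclear excess of a member correlated across 47 members with its transcript length (Spearman 0.427, against 0.302 over 10972 genes), as a description of points that share the same libraries.

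**Figure D1:**
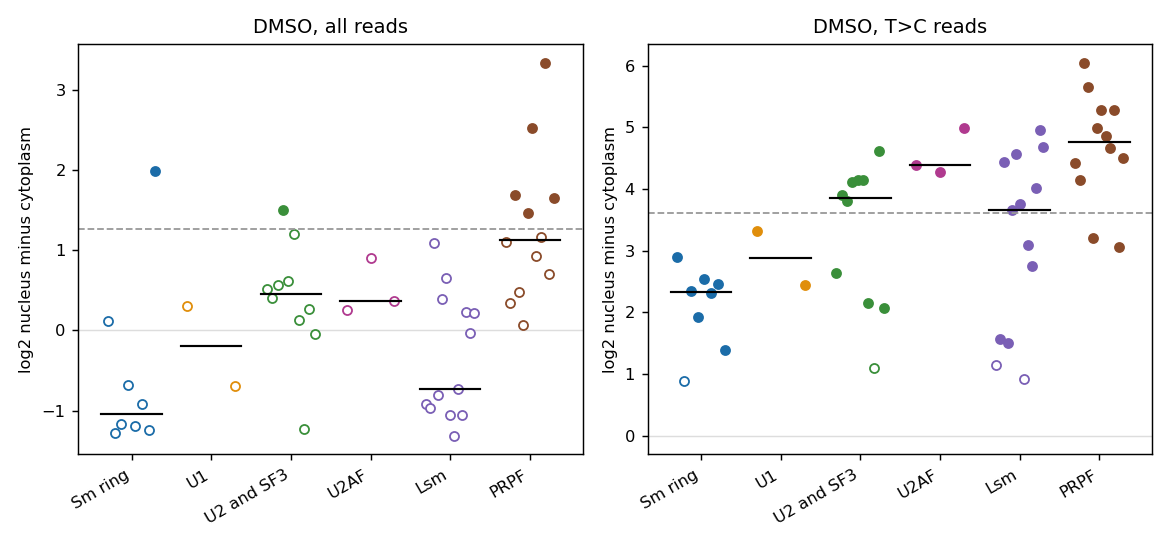
Log2 difference between the nuclear and cytoplasmic fractions of DMSO cells (y axis) for each member, grouped by role (x axis), for all reads and for T>C reads. Filled points passed limma's test at an adjusted p under 0.05, black lines are role medians and the dashed line is the median of all genes. In all reads the Sm ring and Lsm medians lie below 0 and the PRPF median at 1.13, while in T>C reads every member lies above 0.

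At equal RNA mass, T>C values of the members were higher in the nucleus than in the cytoplasm of DMSO cells, as for genes in general. In T>C reads 44 of the 48 members passed as higher in the nucleus, where 93.6% of all genes tested did, with a median of 3.78 against 3.62 for all genes. Members with few cytoplasmic T>C reads entered this test through the nuclear libraries and had to differ. PRPF3 (6.05) and PRPF31 (5.66), a protein of the U4/U6 particle that passed the filter only through the nucleus, lay highest. The 4 that did not pass were SNRPD1 (0.90), LSM3 (0.93), SF3B5 (1.10), a small subunit of SF3B, and LSM1 (1.14). SNRPD1 had T>C values of 217, 184 and 159 in the cytoplasm and 134, 596 and 517 in the nucleus, which overlap. PRPF3 had 2.42, 13.5 and 2.59 in the cytoplasm against 428, 732 and 163 in the nucleus. The T>C share of a member's reads in DMSO nuclei ran from 1.17% for PRPF19 to 23.1% for LSM6 as means of 3 libraries. Across 47 members the nuclear share correlated with the percentage of T in the last 250 bases of the transcript (Spearman 0.657, against 0.352 over 10855 genes). Shares are therefore not compared between members.

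In the fit without a block few members passed in all reads after 3 h. In the cytoplasm the median member changed by -0.12 with JQ1, 0.10 with IBET151, -0.08 with JQ1-VHL and -0.07 with IBET151-VHL on the log2 scale, against -0.13, 0.00, -0.17 and -0.16 for all genes. All 4 comparisons, here and below, share the same DMSO libraries. With JQ1-VHL 2 of the 48 members fell, LSM11 and U2AF1L4, where 12.9% of all genes passed in either direction. With IBET151-VHL 2 fell, LSM11 and PRPF38B, where 15.8% of all genes passed. In limma 0 members passed with JQ1 (4 at an unadjusted p under 0.05, background 4.82%) and 0 with IBET151 (1 unadjusted, background 2.52%). edgeR on recovered reads called LSM11 with JQ1 as well (-1.88, adjusted p 0.0365). With runs A to D as a block (the run block) 5 members passed with JQ1 (background 12.9%), 12 with JQ1-VHL (26.8%), 2 with IBET151 (7.14%) and 9 with IBET151-VHL (28.6%).

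LSM11, a U7 particle protein, had the largest called change of a member in cytoplasmic all reads. It read 107, 192 and 89 in the cytoplasm with DMSO, a mean of 129 ± 54.8 (SD, n = 3). The values were 32.4, 40.5 and 32.1 with JQ1, 52.3 and 50.1 with IBET151, 10.1, 21.7 and 37.1 with JQ1-VHL and 26.9, 19 and 5.37 with IBET151-VHL. Every library with a compound lay below every DMSO library. limma gave -2.54 (SE 0.52, adjusted p 0.0047) for JQ1-VHL and -3.01 (SE 0.52, adjusted p 0.000845) for IBET151-VHL. For JQ1 it gave -1.78 (adjusted p 0.0684) and for IBET151 -1.24 (adjusted p 0.399), which did not pass. In the nucleus LSM11 read 184, 393 and 249 with DMSO, 44.3, 105 and 81.8 with JQ1, and 129 and 106 with IBET151. It read 27.5, 90.9 and 91.1 with JQ1-VHL and 14, 67.5 and 26.9 with IBET151-VHL, again all below DMSO. The IBET151-VHL fall there was -3.10 (SE 0.66, adjusted p 0.00124 in limma), and within run A and within run B it was -3.62 and -2.52. The calls of LSM11 with JQ1-VHL and IBET151-VHL in the cytoplasm and with IBET151-VHL in the nucleus held in every alternative run.

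PRPF38B, a relative of the yeast splicing factor Prp38, read 4754.4, 4501.6 and 1932.5 in the cytoplasm with DMSO. It read 2484.7, 2213.4 and 1266.5 with JQ1, 2018.2 and 1539.7 with IBET151, 1747.2, 2296.5 and 1670.3 with JQ1-VHL and 2013.0, 1656.2 and 1235.5 with IBET151-VHL. DMSO replicate 3 was far below the other 2 DMSO libraries, and all 4 compounds overlapped the DMSO range. The IBET151-VHL change of -1.11 (SE 0.33, adjusted p 0.0312 in limma) lost its call without DMSO replicate 1 (-0.88), DMSO replicate 2 (-0.92), IBET151-VHL replicate 2 (-1.13) or IBET151-VHL replicate 3 (-0.92), leaving 1 member called. U2AF1L4, a paralogue of the small U2AF subunit, read 341, 360 and 371 with DMSO and 229, 255 and 225 with JQ1-VHL, without overlap. Its change of -0.60 (adjusted p 0.0398 in limma) also lost its call without any 1 of the 6 libraries. With JQ1-VHL 1 member was left without DMSO replicate 1 or 2 or without any JQ1-VHL library. Without DMSO Cyto replicate 3, 3 members passed with JQ1 and 1 with IBET151.

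**Figure D2:**
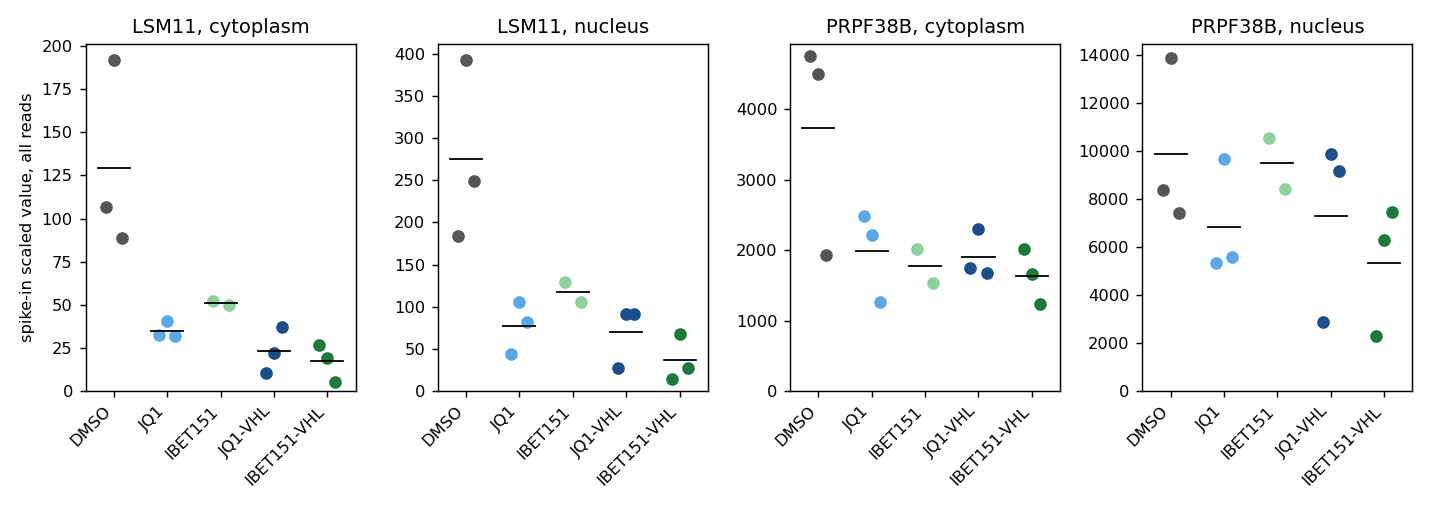
All reads of LSM11 and PRPF38B (y axis, the authors' signal on a linear scale from 0) in each library of the 5 treatments (x axis), by fraction. Points are libraries and lines are group means. For LSM11 every library with a compound lies below every DMSO library in both fractions, while PRPF38B overlaps DMSO in the cytoplasm.

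In the replicate-blocked fit, 2 members fell in the cytoplasm with JQ1, PRPF3 (-0.63) and PRPF38B (-0.86), where 7.6% of all genes passed. With JQ1-VHL 5 fell, LSM11, PRPF3, PRPF38B, PRPF39 and U2AF1L4 (background 16.8%), and with IBET151-VHL 3 fell, LSM11, PRPF3 and PRPF38B (background 19.2%). PRPF39 is the homologue of a yeast U1 protein. What a replicate number stands for is not in the labels. For both VHL compounds the block joins their replicate 3 of run C with DMSO replicate 3 of run D, which limits these counts.

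In nuclear RNA the members' medians lay near those of all genes. The median member changed by -0.39 with JQ1, 0.10 with IBET151, -0.40 with JQ1-VHL and -0.70 with IBET151-VHL, against -0.43, 0.05, -0.48 and -0.71 for all genes. All 48 members had a lower mean log value with IBET151-VHL, and within run A 46 of 48 and within run B 48 of 48 were lower than DMSO. Genes in general were lower as well. Their medians were -0.97 in run A and -0.52 in run B, against -0.83 and -0.49 for the members. The members' summed value changed by -0.63 with this compound and by 0.15 with median-ratio scaling, with overlap in both. In limma 1 member passed with IBET151-VHL, LSM11 (background 4.55%). None passed with JQ1 (2 at an unadjusted p under 0.05, background 0.0694%), IBET151 (0 unadjusted, background 0.0971%) or JQ1-VHL (2 unadjusted, background 1.97%), and edgeR also gave 0 in these 3. With the replicate block 2 passed with JQ1, LSM11 (-1.84) and PRPF40B (-1.68), where 10.7% of all genes did. With JQ1-VHL 4 passed, LSM10, LSM11, PRPF4 and PRPF40B (background 26.1%), and with IBET151-VHL 25 fell (background 46%). For both VHL compounds this block, too, joins replicate 3 of run C with DMSO replicate 3 of run D. With the run block 19 fell with JQ1 (35.1% of all genes passed), 17 with JQ1-VHL (41%), 9 with IBET151 (22.3%) and 38 with IBET151-VHL (59.3%). PRPF40B read 606, 515 and 383 with DMSO, 114, 209 and 149 with JQ1, 352 and 207 with IBET151, 38.9, 244 and 211 with JQ1-VHL and 63.7, 173 and 170 with IBET151-VHL. None of these libraries reached the DMSO range, while the unblocked test did not pass.

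**Figure D3:**
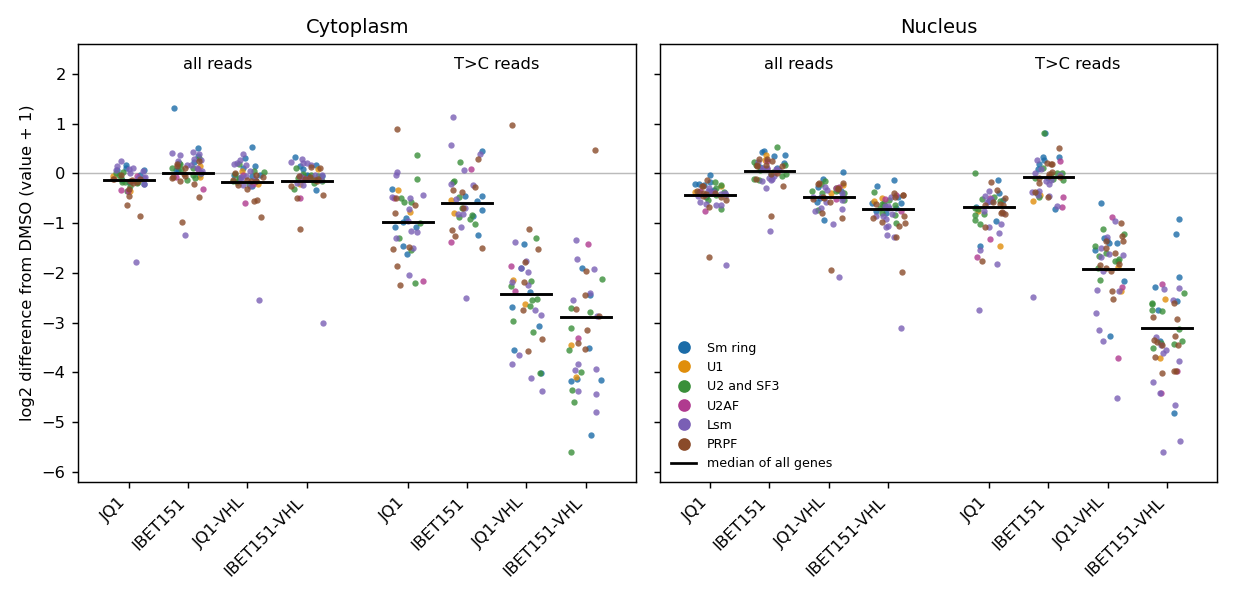
Log2 change of each member against DMSO (y axis) for the 4 compounds, in all reads and T>C reads of each fraction. Dots are members coloured by role and spread sideways only to part them, and black bars are the median of all genes tested. In all reads most members lie near the bar and LSM11 lies lowest, while in T>C reads nearly all members fall with both VHL compounds, along with the bar.

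Newly made cytoplasmic RNA of the members fell with both VHL compounds. Summed over the 48 members, T>C values were 1524.7, 1704.6 and 1237.1 with DMSO, 807, 856 and 650 with JQ1 and 893 and 1153.4 with IBET151. They were 143, 281 and 253 with JQ1-VHL and 67.9, 126 and 96.6 with IBET151-VHL. No compound overlapped DMSO. The falls were 1.93-fold, 1.45-fold, 6.81-fold and 15.7-fold. No sum over all genes was set beside them, and the medians of all genes, given below, fell as well. The 2-sided exact permutation p was 0.1, the smallest that 3 against 3 libraries allow, and 0.2 for IBET151. In all reads the same sums changed by -0.11 with JQ1, 0.09 with IBET151, -0.06 with JQ1-VHL and -0.06 with IBET151-VHL on the log2 scale, with overlap throughout. The sign depended on the scaling and the libraries for all compounds but IBET151. With median-ratio scaling the differences were 0.045, 0.10, 0.17 and 0.17, the last 3 without overlap. Without DMSO Cyto replicate 2 they were 0.034, 0.23, 0.09 and 0.09, without overlap for IBET151 and IBET151-VHL.

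Of the 48 members, 40 passed the filter on low T>C values in the cytoplasm, a filter that a member could meet through the DMSO libraries alone. With JQ1-VHL 38 of the 40 fell, where 82.8% of all genes tested fell, and with IBET151-VHL 38 of the 40 fell, where 88.3% did. The median changes were -2.46 and -3.36, against -2.42 and -2.90 for all genes. PRPF3 (-1.11) and PRPF40B (0.96) did not pass with JQ1-VHL, nor LSM7 (-1.33) and PRPF40B (0.47) with IBET151-VHL. The untested members were LSM11, PRPF18, PRPF31, PRPF39, PRPF4, SF3A2, SNRPN and U2AF1L4. SNRPN, an imprinted Sm gene, had 0 T>C reads in every cytoplasmic library.

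All 7 tested Sm ring genes fell with each VHL compound, by medians of -2.69 and -4.12. SNRPE read 59.6, 54 and 44 with DMSO, 17, 20.6 and 17.6 with JQ1 and 18.1 and 44.6 with IBET151. It read 1.34, 3.62 and 2.23 with JQ1-VHL and 0.673, 0 and 0.597 with IBET151-VHL, below all other libraries. Its changes were -4.02 (SE 0.52) and -5.26 (SE 0.52), with adjusted p of 3.70e-07 and 1.18e-09 in limma. SNRPD1 read 217, 184 and 159 with DMSO, 106, 89.7 and 68.8 with JQ1, 102 and 121 with IBET151, 16.8, 28.1 and 20.1 with JQ1-VHL and 13.5, 8.64 and 7.76 with IBET151-VHL. DMSO was highest, both parents lay between, and both VHL compounds were lowest, with no overlap between these 3 levels. SNRPB read 127, 75.1 and 84.9 with DMSO, 17.4, 24.5 and 33.4 with JQ1-VHL and 15.5, 22.5 and 12.5 with IBET151-VHL, a smaller fall of -1.90 and -2.44.

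Both U1 genes and all 9 tested U2 genes fell with each VHL compound. SNRPC, a U1 protein that helps to hold the 5′ splice site, read 28.2, 15.2 and 16.6 with DMSO, 2.01, 0.906 and 5.2 with JQ1-VHL and 0.673, 0 and 0 with IBET151-VHL. SNRPA, the U1 protein that binds a stem loop of U1 RNA, read 21.7, 17.7 and 10.3 with DMSO, 1.34, 1.81 and 7.43 with JQ1-VHL and 1.35, 0 and 0.597 with IBET151-VHL. Both U1 genes fell below the DMSO range in all 6 VHL libraries. SF3B5 read 147, 148 and 146 with DMSO, 106, 94.4 and 111 with JQ1 and 128 and 136 with IBET151. It read 1.34, 20.8 and 14.1 with JQ1-VHL and 0, 1.73 and 9.55 with IBET151-VHL. This was the largest IBET151-VHL change of the members tested in cytoplasmic T>C reads (-5.59, SE 0.64). SF3A1, a subunit that joins SF3A to U2, read 84.5, 81.9 and 55.4 with DMSO, 5.36, 13.6 and 8.17 with JQ1-VHL and 0, 5.19 and 3.58 with IBET151-VHL. SF3B1, the branch point subunit often mutated in myeloid disease, read 18.5, 28.7 and 11.4, then 1.34, 2.72 and 2.23, then 0, 3.46 and 0 in the same groups. In each of these genes the VHL libraries lay below all DMSO libraries.

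U2AF1, the small subunit that reads the AG of the 3′ splice site, read 36.2, 51.5 and 32.1 with DMSO, 4.02, 5.44 and 13.4 with JQ1-VHL and 2.69, 4.32 and 2.39 with IBET151-VHL. U2AF2, the large subunit, read 10.5, 6.75 and 6.21 with DMSO, 0, 1.81 and 3.71 with JQ1-VHL and 2.69, 1.73 and 2.39 with IBET151-VHL, again without overlap. Its JQ1-VHL change of -1.87 lost its call without JQ1-VHL replicate 1 (-1.24) and in edgeR (-2.05). Its IBET151-VHL change of -1.41 (adjusted p 0.0345 in limma) lost its call without filter, with median-ratio scaling (-1.24), in edgeR (-1.73) and without any of 5 libraries, which were DMSO replicates 1 and 2 and all 3 of IBET151-VHL. Among Lsm genes 12 of 12 tested fell with JQ1-VHL and 11 with IBET151-VHL. LSM10 read 25, 18.6 and 16.6 with DMSO and 0 in all 6 VHL libraries. Against a floor of 3 reads over the group it was at least 25.9-fold lower with JQ1-VHL and at least 28.2-fold lower with IBET151-VHL. LSM12, an RNA-binding Lsm protein outside the U6 ring, read 14.5, 24.5 and 21.7 with DMSO, 0, 0 and 0.743 with JQ1-VHL and 0.673, 0.864 and 0 with IBET151-VHL. LSM3 read 37.8, 30.4 and 37.3 with DMSO, 0, 8.15 and 0.743 with JQ1-VHL and 0, 0 and 1.19 with IBET151-VHL. In these 3 Lsm genes the VHL libraries lay below all DMSO libraries. LSM14A read 12.1, 70.9 and 45.5 with DMSO, 0, 8.15 and 11.9 with JQ1-VHL and 0, 1.73 and 0.597 with IBET151-VHL. LSM2, part of both Lsm rings, read 3.22, 22 and 6.73 with DMSO, 0, 0 and 1.49 with JQ1-VHL and 2.69, 0 and 0 with IBET151-VHL. The scaled values of these genes did not overlap DMSO either, though DMSO replicate 1 was low in both. In recovered reads LSM14A had 15 in DMSO replicate 1 and 16 in JQ1-VHL replicate 3. LSM2 had 4 reads in DMSO replicate 1 and 4 in IBET151-VHL replicate 1. Between these libraries the separation thus rests on the scaling. PRPF8 read 12.9, 20.3 and 4.66 with DMSO, 0 in all 3 JQ1-VHL libraries (at least 16.3-fold lower) and 3.36, 0 and 0 with IBET151-VHL.

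The parent inhibitors gave fewer calls. With JQ1 7 of the 40 fell, where 20.1% of all genes tested fell. They were PRPF38A (-2.23), SF3B3 (-2.20), U2AF2 (-2.17), LSM12 (-2.03), SNRPE (-1.46), SNRPB2 (-1.29) and SNRPD1 (-1.08). PRPF38A, a tri-snRNP-associated protein, read 20.1, 12.7 and 13.5 with DMSO and 5.11, 5.56 and 0 with JQ1. SF3B3 read 20.9, 22.8 and 9.31 with DMSO and 0, 5.56 and 7.48 with JQ1. With a pseudocount of 5 the count was 18 (background 39.4%), with only the 2 groups compared 15 (28.6%), and with median-ratio scaling 3 (14.5%). It was 1 without DMSO Cyto replicate 1 or 2, 3 without JQ1 Cyto replicate 1 and 2 without JQ1 Cyto replicate 3. With IBET151 1 member fell, LSM5 (-2.51, adjusted p 0.045 in limma, background 6.76%), which read 6.44, 31.2 and 14.5 with DMSO and 0 and 6.38 with IBET151. The groups did not overlap, with 6.38 just under 6.44, and the count was 0 without IBET151 Cyto replicate 1, DMSO Cyto replicate 2 or DMSO Cyto replicate 3. The median members changed by -0.93 with JQ1 and -0.55 with IBET151, against -0.97 and -0.60 for all genes.

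**Figure D4:**
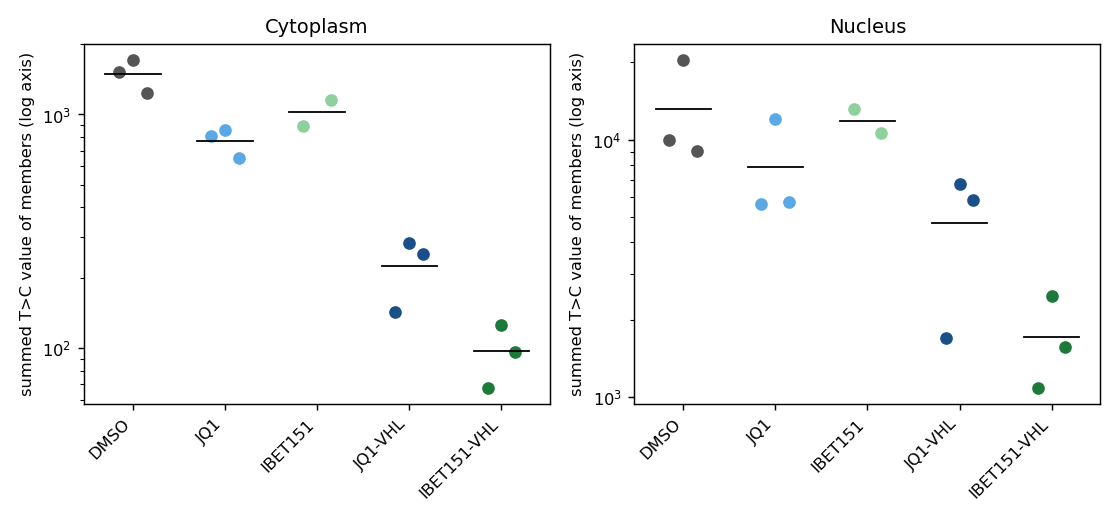
Summed T>C value of the 48 members in each library (y axis, the authors' signal on a log scale) for the 5 treatments (x axis), by fraction. Points are libraries and lines are group means. In the cytoplasm the IBET151-VHL libraries lie between 67.9 and 126 and DMSO between 1237.1 and 1704.6, while in the nucleus JQ1 and IBET151 overlap DMSO and both VHL compounds lie below it.

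In the nucleus the sum of the members' T>C values was 9988.7, 20353.1 and 9025.6 with DMSO, 5605.9, 12091.3 and 5737.9 with JQ1 and 13165.1 and 10580.9 with IBET151. It was 1693.5, 6726.7 and 5848.9 with JQ1-VHL and 1088.4, 2458.3 and 1562.9 with IBET151-VHL. Both VHL compounds lay below every DMSO library, 3.02-fold and 7.6-fold lower, with an exact permutation p of 0.1 each, while the parents overlapped DMSO. These sums, too, were not set against a sum over all genes. With median-ratio scaling JQ1-VHL overlapped DMSO (2.07-fold lower, exact permutation p 0.2) and IBET151-VHL did not (4.42-fold lower, exact permutation p 0.1). Without JQ1-VHL Nuc replicate 1 the JQ1-VHL sum was 1.95-fold lower. All 48 members passed the filter. With IBET151-VHL 46 of the 48 fell, where 83.9% of all genes tested fell, and the median was -3.37 against -3.12 for all genes. With JQ1-VHL 31 of the 48 fell, where 60.5% of all genes did, and the median was -1.69 against -1.92. With JQ1-VHL, 12 passed with median-ratio scaling (34% of all genes), 6 without DMSO Nuc replicate 2, 9 without JQ1-VHL Nuc replicate 1 and 8 without run A. The IBET151-VHL count stayed at 46 in each fit that left out 1 library.

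By role, 13 of 13 Lsm, 12 of 12 PRPF, 10 of 10 U2, 2 of 2 U1, 3 of 3 U2AF and 6 of 8 Sm ring genes fell with IBET151-VHL. The medians were -3.60, -3.42, -2.96, -3.11, -3.98 and -2.42. With JQ1-VHL the counts were 10 Lsm, 7 PRPF, 7 U2, 2 U1, 2 U2AF and 3 Sm ring genes. The Sm genes that did not pass with IBET151-VHL were SNRPD3 (-1.22) and SNRPN (-0.91), whose T>C values were at most 6.04. SNRPD3 read 232, 617 and 358 with DMSO, 102, 434 and 331 with JQ1-VHL and 139, 190 and 152 with IBET151-VHL. JQ1-VHL overlapped DMSO and IBET151-VHL did not. SNRPE read 195, 563 and 270 with DMSO, 71.7, 156 and 124 with JQ1, 197 and 177 with IBET151, 12.7, 37.9 and 62.2 with JQ1-VHL and 4.66, 22.5 and 8.96 with IBET151-VHL. Its changes of -3.26 with JQ1-VHL (SE 0.73, adjusted p 1.21e-04 in limma) and -4.82 with IBET151-VHL (adjusted p 5.93e-10) were the largest of the Sm ring.

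LSM11 had T>C values of 44.5, 84.9 and 28.7 in DMSO nuclei, from 48, 48 and 15 reads. It had 4.58, 15.2 and 3.21 with JQ1 and 14.1 and 3.98 with IBET151, all below DMSO. With JQ1-VHL it had 0, 0 and 8.89, and with IBET151-VHL 0 reads in all 3 libraries, at least 33.3-fold lower against 3 reads over the group. U2AF1L4 read 18.5, 37.1 and 32.6 with DMSO, 1.34, 3.79 and 0 with JQ1-VHL and 1.55, 0 and 0 with IBET151-VHL. LSM3 read 21.3, 136 and 103 with DMSO, 9.38, 32.2 and 40 with JQ1-VHL, which overlaps DMSO, and 0, 3.46 and 0 with IBET151-VHL. These genes were at or near 0 in all 3 IBET151-VHL libraries. LSM2 read 80.7, 255 and 88.1 with DMSO, 4.69, 28.4 and 8.89 with JQ1-VHL and 5.43, 13.8 and 2.24 with IBET151-VHL. PRPF8 read 220, 442 and 197 with DMSO, 41.5, 186 and 147 with JQ1-VHL and 10.9, 93.4 and 15.7 with IBET151-VHL, so both VHL compounds lay below DMSO. Its JQ1-VHL change of -1.35 did not pass (adjusted p 0.0772 in limma). SF3B1 read 276, 603 and 222 with DMSO, 56.9, 214 and 144 with JQ1-VHL and 26.4, 48.4 and 17.9 with IBET151-VHL. U2AF1 read 780, 1378.0 and 553 with DMSO, 190, 771 and 655 with JQ1-VHL, which overlaps, and 124, 313 and 150 with IBET151-VHL.

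The other members with nuclear T>C values given by library showed the same order, with DMSO Nuc replicate 1 nearest to the VHL libraries in most. SNRPD1 read 134, 596 and 517 with DMSO, 111, 377 and 316 with JQ1, 423 and 323 with IBET151, 30.8, 142 and 100 with JQ1-VHL and 21, 51.9 and 31.3 with IBET151-VHL. JQ1-VHL overlapped DMSO by 1 library, and IBET151-VHL did not overlap. SNRPB read 421, 1202.9 and 678 with DMSO, 131, 366 and 382 with JQ1-VHL and 85.4, 192 and 101 with IBET151-VHL, without overlap, and its JQ1-VHL change of -1.41 did not pass (adjusted p 0.0583 in limma). SNRPC read 62.1, 173 and 121 with DMSO, 6.7, 41.7 and 28.9 with JQ1-VHL and 3.11, 13.8 and 8.96 with IBET151-VHL. SNRPA read 109, 290 and 147, then 20.8, 53 and 80, then 15.5, 38.1 and 38.1 in the same groups. Both U1 genes passed with each VHL compound, without overlap. SF3A1 read 326, 723 and 410 with DMSO, 76.4, 377 and 262 with JQ1-VHL, which overlaps, and 42.7, 116 and 58.2 with IBET151-VHL. U2AF2 read 211, 520 and 184 with DMSO, 23.4, 64.4 and 111 with JQ1-VHL and 12.4, 38.1 and 8.96 with IBET151-VHL. LSM10 read 34.3, 92 and 68.9 with DMSO, 26.7, 53.7 and 70.6 with JQ1, 78.5 and 33.8 with IBET151, 3.35, 22.7 and 15.5 with JQ1-VHL and 0.776, 6.92 and 0 with IBET151-VHL. LSM10 thus overlapped DMSO with both parents and with neither VHL compound. LSM12 read 38, 77.8 and 65.1 with DMSO, 3.35, 11.4 and 4.44 with JQ1-VHL and 2.33, 5.19 and 0 with IBET151-VHL, also without overlap.

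With the parent inhibitors 0 nuclear T>C calls were made among the members in limma, at backgrounds of 2.29% for JQ1 (5 members at an unadjusted p under 0.05) and 0.987% for IBET151 (1 unadjusted). edgeR gave 0 for each as well. With the replicate block 1 member fell with JQ1 (background 4.07%), and 1 passed without JQ1 Nuc replicate 2. With the run block 7 fell with JQ1 (background 10.8%) and 1 with IBET151 (background 5.09%). The median members changed by -0.71 and -0.09, against -0.67 and -0.07 for all genes.

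The nuclear and the cytoplasmic change in T>C reads were also tested against each other, in 1 limma fit of all 28 libraries. The nuclear change was the lower of the pair for 2 of the 48 members with JQ1-VHL, where this held for 4.96% of all genes, and for 5 with IBET151-VHL, where it held for 23.7%. It was the higher for 2 with IBET151-VHL, SF3B5 (2.97) and SNRPD3 (2.94), where it held for 1.57% of all genes. LSM11 and U2AF1L4, the 2 lower with JQ1-VHL, and PRPF31 entered through their nuclear values only, so their difference had to follow from a nuclear fall. edgeR called 0 of these differences.

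The T>C share is a member's T>C value over its value in all reads. It cancels the scaling of the library only where both values lie well above the 1 added to each in the test. In the cytoplasm it fell for 37 of 40 members with JQ1-VHL, where 76.2% of all genes tested fell, and for 37 of 40 with IBET151-VHL, where 82.2% did. The medians were -2.44 and -3.22, against -2.09 and -2.50 for all genes. It fell for 3 with JQ1, PRPF38A, LSM12 and U2AF2 (background 7.79%), and for LSM5 with IBET151 (background 3.73%). The JQ1 count was 0 without any 1 DMSO library or without JQ1 Cyto replicate 3, and 1 without JQ1 Cyto replicate 2. The IBET151 count was 0 without any 1 DMSO library or without IBET151 Cyto replicate 1. In the nucleus the share fell for 40 of 48 members with IBET151-VHL, where 67% of all genes fell, with 24 of 48 without DMSO Nuc replicate 1, 25 without IBET151-VHL Nuc replicate 3 and 23 without run A. With JQ1-VHL it fell for 2, U2AF1L4 (-3.41) and SNRPE (-2.69), where 9.39% of all genes fell. That count was 24 without DMSO Nuc replicate 3, 1 without JQ1-VHL Nuc replicate 1, and 0 without DMSO Nuc replicate 1 or 2, JQ1-VHL Nuc replicate 2 or 3, or run A. It was 39 with the run block (background 67.1%). For the fits that left out libraries the share of all genes is not given. With JQ1 and IBET151 0 members passed in limma (0 unadjusted in each, backgrounds 0.0166% and 0.0249%), and edgeR has no form of this test. LSM11 had nuclear T>C shares of 24.2%, 21.6% and 11.5% with DMSO.

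Each VHL compound was set against the inhibitor in its name at the same time point, with doses unknown, in 4 pairs of compounds for each fraction and kind of read, with p-values adjusted over all genes within a pair. In cytoplasmic T>C reads 21 of 40 members were lower with JQ1-VHL than with JQ1, where 46.5% of all genes were, and 34 of 40 were lower with IBET151-VHL than with IBET151, where 69.1% were. The 6 that did not pass in the second pair were LSM5, LSM7, LSM8, PRPF3, PRPF40B and U2AF2. In nuclear T>C reads 46 of 48 were lower with IBET151-VHL than with IBET151 (background 81.4%), all but SNRPD3 and SNRPN. There 2 were lower with JQ1-VHL than with JQ1, LSM12 (-2.58, 95% interval -4.27 to -0.90) and LSM2 (-2.31, 95% interval -3.86 to -0.76), where 13% of all genes were. That count was 9 without JQ1-VHL Nuc replicate 2, 4 without JQ1-VHL Nuc replicate 3, 1 without JQ1 Nuc replicate 1, and 0 without JQ1 Nuc replicate 2 or 3 or JQ1-VHL Nuc replicate 1. It was 33 with the run block, where 61.3% of all genes were lower.

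The number of members that differed between IBET151-VHL and JQ1-VHL depended on the fit. In cytoplasmic T>C reads LSM1 was lower with IBET151-VHL (-1.74, 95% interval -2.73 to -0.76, adjusted p 0.0407 in limma), where 3.03% of all genes were. LSM1, of the decapping ring, read 7.38, 24.5 and 28.2 with JQ1-VHL and 2.02, 6.92 and 5.97 with IBET151-VHL, without overlap. The count was 3 without replicate 1 of JQ1-VHL or 3 of IBET151-VHL, 2 without IBET151-VHL replicate 2, and 0 without IBET151-VHL replicate 1 or JQ1-VHL replicate 2 or 3, and 4 with the run block (background 5.1%). In nuclear T>C reads 5 were lower with IBET151-VHL (background 11%): LSM3 (-3.88, 95% interval -5.53 to -2.22), PRPF31 (-2.70), SF3B1 (-2.05), PRPF8 (-1.99) and LSM14A (-1.93), a P-body protein. That count was 38 without JQ1-VHL Nuc replicate 1, whose T>C values were the lowest of its group, 8 without IBET151-VHL Nuc replicate 2, and 1 without any 1 of the other 4 libraries. It was 35 with the run block (background 45.4%) and 1 with median-ratio scaling (background 5.19%). No background is given for the fits that left out a library, so the 38 is not a result about the members. IBET151 and JQ1 gave 0 differences in T>C reads of either fraction in limma, where 0% of all genes passed in the cytoplasm and 0% in the nucleus. The unadjusted counts were 3 and 0, and edgeR gave 0 in each. All 48 nuclear members had a positive difference of IBET151 over JQ1 (median 0.70 against 0.60 for all genes), with intervals as wide as -0.45 to 2.80 for LSM4. IBET151 has no library in run A, while JQ1 has 1, so this difference and the run cannot be told apart in full. Within run B the summed nuclear T>C values were 13165.1 with IBET151 and 12091.3 with JQ1.

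In all reads 0 members passed between any pair of compounds in limma without a block, and edgeR gave 0 as well. In the cytoplasm the backgrounds were 4.23% for JQ1-VHL against JQ1 (0 members unadjusted), 7.91% for IBET151-VHL against IBET151 (1 unadjusted), 0.016% for the VHL compounds against each other (0 unadjusted) and 0% for the parents (0 unadjusted). In the nucleus they were 0.298% (0 unadjusted), 0.541% (1 unadjusted), 0% (0 unadjusted) and 0% (0 unadjusted). Without IBET151-VHL Cyto replicate 1, 1 member passed for IBET151-VHL against IBET151. In the nucleus 8 members were lower with IBET151-VHL than with IBET151 in the fit with the run block (background 19.2%). With median-ratio scaling 1 passed there, PRPF8, which was higher with IBET151-VHL (0.67, adjusted p 0.0458 in limma, background 4.1%), and without run A 1 passed as lower.

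Other genes of the pathway were taken from 3 lists. Of the other snRNP proteins, 26 of 28 listed were tested in all reads and 18 in cytoplasmic and 26 in nuclear T>C reads. In cytoplasmic all reads 2 fell with JQ1-VHL and 3 with IBET151-VHL, where 12.9% and 15.8% of all genes passed in either direction, among them ZRSR2, a minor-spliceosome 3′ splice site factor (-1.19 and -1.54), and SNRNP35 of the U11/U12 particle (-1.0 and -0.97). In T>C reads 15 and 17 of 18 fell in the cytoplasm, where 82.8% and 88.3% of all genes fell, and 15 and 25 of 26 in the nucleus, where 60.5% and 83.9% did. PHF5A, an SF3B subunit, changed by -2.74 and -3.87 in the cytoplasm. The same shares of all genes stand behind the counts of the other lists. Of 43 Prp19 complex, helicase and later factors, 4 and 6 of 41 fell in cytoplasmic all reads, among them the exon junction loader CWC22 (-1.86 with IBET151-VHL). In T>C reads 28 and 32 of 34 fell in the cytoplasm and 28 and 39 of 40 in the nucleus. Of 41 snRNP assembly and snRNA maturation genes, 9 and 13 of 37 fell in cytoplasmic all reads. COIL, the Cajal body scaffold, changed by -1.49 and -2.32, MEPCE, the capping enzyme of 7SK RNA, by -1.31 and -1.49, and GEMIN7 of the SMN complex by -0.99 and -1.26. In T>C reads 22 and 22 of 23 fell in the cytoplasm and 25 and 36 of 39 in the nucleus. In nuclear all reads 0 genes of the lists fell with JQ1-VHL (background 1.97%), and 1, 0 and 2 fell with IBET151-VHL (background 4.55%), EFTUD2 (-2.54), a GTPase of the U5 particle, COIL (-2.44) and the SMN complex helicase DDX20 (-2.31). In these comparisons of the VHL compounds with DMSO 0 genes of the 3 lists rose in limma.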

How the data were processed

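The series holds 28 libraries of polyadenylated RNA from MDA-MB-453 cells, made with a 3′ end kit and read as single 100-base reads, per the labels' protocols. The submitters' processing notes name bcl2fastq, Trimmomatic 0.39, HISAT2, HTSeq and DESeq2 and the builds GRCh37, hg19 and dm3, without roles. How T>C reads were called is not given in the sources used here, and no library without 4sU was analysed here. The deposited values are signal that the authors scaled to ERCC RNA, as the tables' names say, and within a library 100% of them lay within 0.001 of a whole number of 1 step, so reads could be recovered. Reads of genes with near-identical copies may be shared, and 3′ end reads do not depend on transcript length.

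limma 3.58.1 (R 4.3.3) with a variance trend was fitted to log2(value + 1) over all genes that reached 10 in the table of all reads, or 5 in that of T>C reads, in 2 or more libraries. A fold change is on that scale and understates the change of low genes. The 14 libraries of a fraction entered 1 fit, and all 28 entered the fit of DMSO fractions and of nuclear minus cytoplasmic effects. The T>C share was tested as log2(T>C value + 1) minus log2(value of all reads + 1). p-values were adjusted by Benjamini-Hochberg over all genes, with a threshold of 0.05, and the background is the percentage of all genes tested that passed. Fits that left out libraries are given without a background, so their counts show only how the calls moved. Summed values were compared by 2-sided exact permutation tests (scipy 1.17.1). The members and gene lists were chosen with earlier results of these data known. All members could be named, with values in each library for the 5 largest calls of a comparison and for SNRPB, SNRPD1, SNRPA, SNRPC, SF3A1, SF3B1, U2AF1, U2AF2, LSM2 and PRPF8, and 4 genes of a related list were chosen by p.

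The alternatives were a pseudocount of 5, no filter, median-ratio scaling, a block for the replicate number or for the library-number run, edgeR 4.0.16 (quasi-likelihood) on recovered reads, only the 2 groups compared, leaving out each library and, chosen after seeing the data, leaving out run A. The number was taken to pair libraries where every same-numbered correlation of deviations from group means was over 0.1. This held in all reads for every group but IBET151 (lowest 0.203 in Cyto and 0.159 in Nuc), between the DMSO fractions (0.105), and for nuclear JQ1 and DMSO in T>C reads (0.234) and shares (0.222). Scripts were tested on simulated data. Promoter windows came from RefSeq on GRCh38.p14, which is not the build of the files, and no coordinates of the files are used. Pseudogene names, transcript lengths and T percentages came from GENCODE.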

Additional observations from a re-analysis of the deposited data

Results flagged for a closer look

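Among members that passed the filter on low T>C values in both fractions, the IBET151-VHL effect on T>C reads differed between the fractions for 4, tested as the nuclear minus the cytoplasmic change from DMSO in 1 limma fit of all 28 libraries. The nuclear change was smaller in size than the cytoplasmic for SF3B5 (2.97, adjusted p 0.0155) and SNRPD3 (2.94, adjusted p 0.00642), where 1.57% of all genes differed in this direction. SNRPD3 changed by -4.16 in cytoplasmic T>C reads and by -1.22 in nuclear ones. The nuclear change was the lower for PRPF40B (-3.91) and U2AF2 (-2.57), where 23.7% of all genes differed in this direction. PRPF40B had cytoplasmic T>C values of 0, 0 and 4.66 with DMSO, so a fall there could hardly be seen. U2AF2 had 13, 8 and 12 cytoplasmic T>C reads with DMSO, which also limits the size of a fall there. LSM11 (-4.44), PRPF31 (-3.92) and U2AF1L4 (-3.83) also passed with IBET151-VHL, and LSM11 (-3.34, SE 1.04, adjusted p 0.0389) and U2AF1L4 (-3.12, adjusted p 0.04) with JQ1-VHL (background 4.96%). These 3 genes had too few cytoplasmic T>C reads for a test and entered through the nucleus alone, so the difference had to follow from the nuclear fall. edgeR on recovered reads called 0 of all these differences, with a smallest adjusted p of 0.178, for SNRPD3. With median-ratio scaling the IBET151-VHL differences of LSM11 (-3.54), SF3B5 (3.78) and SNRPD3 (3.62) passed and the other 6 differences did not. With a pseudocount of 5 the difference of SF3B5 was 1.75 and did not pass.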

How the results depend on the processing

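Counts below are members passing, for all reads, T>C reads or T>C shares in the cytoplasm (Cyto) or nucleus (Nuc), and a compound named alone was compared with DMSO. They stand here without the share of all genes that passed in the same fit. A moved count therefore does not set the members apart from other genes. Nuclear results are limited by the run of library numbers, cytoplasmic T>C results by few reads, and 3 against 3 libraries by an exact p of 0.1. Of 3832 alternative values of single members, 3581 kept direction and side of the threshold, 149 lost a call, 102 gained one and 0 of the called values changed sign. Summed values moved by less than the spread between libraries, but in all reads their sign changed for JQ1, JQ1-VHL and IBET151-VHL in both fractions and for Nuc IBET151, in T>C reads for Nuc IBET151, and the overlap of 2 groups changed in some fits. Except where fewer libraries or genes entered, the cause of a moved count was not tested.

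With the replicate block, where the number was taken to pair libraries, all reads gave 2 for Cyto JQ1, 5 for Cyto JQ1-VHL, 2 for Nuc JQ1, 4 for Nuc JQ1-VHL, 25 for Nuc IBET151-VHL and 18 for the DMSO fractions, T>C reads 1 for Nuc JQ1. Where the libraries share only a number, the replicate block gave in all reads 1 for Cyto and 1 for Nuc IBET151, 45 for Nuc IBET151-VHL against IBET151 and 30 for Nuc IBET151 against JQ1, in T>C reads 2 (Cyto) and 16 (Nuc) for IBET151-VHL against JQ1-VHL and 9 for Nuc JQ1-VHL against JQ1, and in shares 20 for Nuc JQ1-VHL. For IBET151 the number joins libraries of different runs, so its counts here are not results about the members. The replicate block moved no other count by over 1.5 times.

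With the library-number run as a block, all reads gave 5 for JQ1, 12 for JQ1-VHL, 2 for IBET151 and 9 for IBET151-VHL in Cyto, 19, 17, 9 and 38 for the same compounds in Nuc, 8 for Nuc IBET151-VHL against IBET151 and 19 for the DMSO fractions. T>C reads gave 4 (Cyto) and 35 (Nuc) for IBET151-VHL against JQ1-VHL, 7 for Nuc JQ1, 1 for Nuc IBET151 and 33 for Nuc JQ1-VHL against JQ1, and shares 0 for Cyto IBET151 and 39 for Nuc JQ1-VHL. Without run A, all reads gave 1 for Nuc JQ1-VHL, 8 for Nuc IBET151-VHL and 1 for Nuc IBET151-VHL against IBET151, T>C reads 8 for Nuc JQ1-VHL, 0 against JQ1 and 19 for IBET151-VHL against JQ1-VHL, and Nuc shares 0 for JQ1-VHL and 23 for IBET151-VHL.

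Median-ratio scaling gave in all reads 1 (Cyto JQ1-VHL), 4 (Cyto IBET151-VHL, of which PRPF31 and SNRPC were higher), 1 (Nuc JQ1-VHL), 1 (Nuc IBET151-VHL against IBET151, higher) and 38 (DMSO fractions), and in T>C reads 3 (Cyto JQ1), 2 (Cyto IBET151-VHL against JQ1-VHL), 12 (Nuc JQ1-VHL) and 1 (Nuc IBET151-VHL against JQ1-VHL). A pseudocount of 5 gave 1 for Cyto JQ1 in all reads, 18 (Cyto JQ1), 0 (Cyto IBET151-VHL against JQ1-VHL), 1 (Nuc JQ1), 1 (Nuc IBET151) and 1 (Nuc IBET151-VHL against JQ1-VHL) in T>C reads, and 10 (Cyto JQ1), 2 (Cyto IBET151) and 0 (Nuc JQ1-VHL) in shares. Without a filter there were 1 for Cyto JQ1-VHL in all reads, 4 (Cyto JQ1), 0 (Cyto IBET151) and 0 (Cyto IBET151-VHL against JQ1-VHL) in T>C reads and 1 for Cyto JQ1 in shares. edgeR gave 1 for Cyto JQ1 in all reads and 3 (Cyto JQ1), 0 (Cyto IBET151), 3 (Cyto and Nuc IBET151-VHL against JQ1-VHL) and 1 (Nuc JQ1-VHL against JQ1) in T>C reads. Only the 2 groups compared gave 1 each for Cyto JQ1, JQ1-VHL and IBET151-VHL and 2 for Nuc IBET151-VHL in all reads, 15 (Cyto JQ1), 0 (Cyto and Nuc IBET151-VHL against JQ1-VHL), 1 (Nuc JQ1), 14 (Nuc JQ1-VHL) and 0 (Nuc JQ1-VHL against JQ1) in T>C reads, and 0 (Cyto IBET151) and 6 (Nuc JQ1-VHL) in shares.

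Leaving out each library gave in all reads 0 to 3 for Cyto JQ1, 1 to 3 for Cyto JQ1-VHL and IBET151-VHL, 0 to 1 for Cyto IBET151 and Cyto IBET151-VHL against IBET151, and 2 to 12 for the DMSO fractions. T>C reads gave 1 to 8 for Cyto JQ1, 0 to 1 for Cyto IBET151, 0 to 3 for Cyto and 1 to 38 for Nuc IBET151-VHL against JQ1-VHL, 0 to 1 for Nuc JQ1, 6 to 37 for Nuc JQ1-VHL and 0 to 9 for Nuc JQ1-VHL against JQ1. Shares gave 0 to 2 for Cyto JQ1, 0 to 1 for Cyto IBET151, 0 to 24 for Nuc JQ1-VHL and 24 to 46 for Nuc IBET151-VHL.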
